A study of Homo sapiens with 9 samples.

Results

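The aldehyde dehydrogenases are a family of enzymes, most of which oxidise aldehydes to acids with NAD or NADP, and 10 of their genes are described here: ALDH1A1, ALDH1A2, ALDH1A3, ALDH1B1, ALDH2, ALDH3A1, ALDH3A2, ALDH7A1, ALDH9A1 and ALDH18A1. They were taken by symbol from 26621 genes, with the RefSeq transcript entry of most reads kept for each gene. All 10 were present in the tables, through 30 transcript entries. The list was chosen by reads in A549 T12 against HEK293T T12, which were known beforehand, so that comparison is a description without a test.

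The study made poly(A) tail libraries (CLT-seq) from the total RNA of 2 human lines, both labelled wild type, and varied the oligo(dT) primer of the reverse transcription. HEK293T, a transformed embryonic kidney line grown in DMEM, gave 6 libraries with gene counts. Of these, 3 used primers that end in a plain run of T (T12, T18 and T30, with 12, 18 and 30 T). The other 3 used primers with 18 T followed by an anchor of 1 base that is not T (T18V), or by that base and 1 (T18VN) or 2 (T18VNN) arbitrary bases. A549, a lung carcinoma line grown in F-12K medium, gave 1 library with gene counts, made with T12. Every group thus had n = 1, the cell line and the culture medium cannot be told apart, and the spread over HEK293T libraries is a spread over primers. The fewest reads on genes were 1498116, in A549, and the most 5200179, in HEK293T T18. Levels are given as CPM, the reads of a gene per 1000000 reads on genes. The detection floor of 3 reads was 2.00 CPM in A549 and 0.577 to 1.35 CPM in HEK293T. The labels of both lines were set against marker genes. These were chosen with earlier results of these data known, so this is not an independent check of the labels. All 8 A549 markers (KRT7, KRT8, KRT18, KRT19, NQO1, AKR1B10, AKR1C2 and TGFBI) were at least 2-fold higher in A549. Of 8 HEK293T markers, NEFM, NEFL, LIN28B, PAX2, CDKN2A and SMARCA4 were at least 2-fold lower in A549, INA went the other way (45.4 CPM in A549, 7.35 CPM in HEK293T T12), and SOX11 had no read in either T12 library.

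Aldehydes arise in cells from alcohols, lipids, amino acids and vitamin A, and are reactive with protein and DNA. ALDH1A1, ALDH1A2 and ALDH1A3 make retinoic acid, the hormone-like form of vitamin A, from retinaldehyde. ALDH2 and ALDH1B1 are mitochondrial enzymes known for acetaldehyde, ALDH3A1 and ALDH3A2 act on aromatic and fatty aldehydes, and ALDH7A1, ALDH9A1 and ALDH18A1 serve the metabolism of lysine, carnitine and proline. ALDH1A1 activity is widely used as a marker in lung carcinoma lines.

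The primers of this assay anneal to the poly(A) tail, so the 3′ ends of the transcripts are the sites they are designed for. The following stretches from GENCODE 29 transcripts (GRCh38) start at the polyadenylation signal AATAAA, in capitals, and run 5′ to 3′ to the transcript end or for 30 bases. They show that transcripts of opposite cell-line pattern carry the same signal next to the tail.
ALDH1A1: AATAAAaacaaccttgcatgattcttgtta
ALDH3A1: AATAAAgagacgaatacaattttctaactc
ALDH1A2: AATAAAgcatttatattgtgtactcct
ALDH9A1: AATAAAtcacactgttaattgtt
The hexamer, searched on the transcript strand, was found in the last 40 bases of 8 of the 9 genes with a GENCODE transcript within 300 nt of a deposited entry in length. It was found in 49.9% of 24685 matched transcripts. These were the first GENCODE transcript of each kept entry, without the limit on length. The 9 genes and this background are thus unlike sets. The gene without it was ALDH3A2. ALDH2 was not included, because the transcript of its kept entry is 9569 nt long in GENCODE against 2060 nt in the deposited table. How much of its 3′ end was counted was not tested. Oligo(dT) can also anneal to A runs inside a transcript. ALDH7A1 held a run of 20 A in its 3′ untranslated region, 2124 bases from the transcript end, shown here in capitals because it is longer than the T stretch of every primer but T30.
ALDH7A1: tctacAAAAAAAAAAAAAAAAAAAAgtgca
No other gene of these 9 had a run of 12 or more A. A run of 18 or more A was present in 2.93% of the matched transcripts, and one of 12 or more in 8.87%. Whether any read began at this run was not tested.

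The regions upstream of the start sites of ALDH1A1 and ALDH1A2 are given because these retinaldehyde dehydrogenases had opposite patterns in the cell lines. Each is the 250 bases before the RefSeq start on GRCh38.p14, read 5′ to 3′ on the gene's own minus strand, at chr9:72953054-72953303 for ALDH1A1 and chr15:58065712-58065961 for the first of 2 listed ALDH1A2 starts. Capitals mark CCAAT and GGGCGG on either strand.
ALDH1A1: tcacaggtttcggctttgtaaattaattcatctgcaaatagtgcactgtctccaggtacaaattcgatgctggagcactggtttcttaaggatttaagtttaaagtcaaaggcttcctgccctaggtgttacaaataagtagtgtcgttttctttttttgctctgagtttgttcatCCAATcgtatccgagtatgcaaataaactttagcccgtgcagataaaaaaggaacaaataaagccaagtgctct
ALDH1A2: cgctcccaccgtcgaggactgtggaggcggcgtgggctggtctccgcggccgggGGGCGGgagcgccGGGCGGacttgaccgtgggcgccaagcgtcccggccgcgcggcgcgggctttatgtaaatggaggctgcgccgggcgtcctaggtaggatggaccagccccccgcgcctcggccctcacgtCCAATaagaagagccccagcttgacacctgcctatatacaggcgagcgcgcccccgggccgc
The ALDH1A1 stretch was 38.4% G and C with 6 CpG, and 10.1% of 35116 promoters had a lower G and C share. The ALDH1A2 stretch was 72.8% G and C with 33 CpG, and 85.3% of promoters lay lower. Both held 1 CCAAT, a motif found in 32.0% of promoters. The ALDH1A2 stretch held 2 GGGCGG and that of ALDH1A1 none, against 42.6% of promoters with at least 1. Neither held TGACNNNGC, a core of the antioxidant response element, which 10.9% of promoters had. The second listed ALDH1A2 start, not shown, was unlike the first. Its 250 bases were 41.6% G and C with 1 CpG, held no CCAAT or GGGCGG, and 15.7% of promoters lay lower. Which start was used in HEK293T was not tested. The matches are descriptions of letters, and no binding was measured.

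The retinaldehyde dehydrogenase with most reads was ALDH1A1 in A549 and ALDH1A2 in HEK293T. ALDH1A1 (chromosome 9, 75515578 to 75568233, minus strand, hg19 as in the deposited tables) had 6115 reads in A549, or 4082 CPM, which ranked it 19 among 13303 genes with reads there. In HEK293T it had 0 reads in T12, T18, T30, T18VN and T18VNN and 1 read in T18V, thus 1 read among 21567794 reads on genes. A549 lay far above all 6 HEK293T libraries, each of which was below the detection floor. Against that floor ALDH1A1 was at least 4443-fold higher in A549 than in HEK293T T12. ALDH1A2 (chromosome 15, 58245622 to 58358121, minus strand) had 0 reads in A549. Its level in HEK293T was 63.7, 36.3 and 76.7 CPM with T12, T18 and T30, and 40.9, 43.1 and 49.2 CPM with T18V, T18VN and T18VNN. All 6 HEK293T libraries were well above the floor, and against the floor of 3 reads ALDH1A2 was at least 31.8-fold lower in A549 than in HEK293T T12. As these were bulk libraries, fewer expressing cells and less RNA per cell cannot be told apart.

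ALDH1A3 (chromosome 15, 101419897 to 101456831, plus strand), the third retinaldehyde dehydrogenase, was low in both lines. It had 12 reads (8.01 CPM) in A549. In HEK293T it had 41 reads (12.6 CPM) with T12, 6 with T18 and 0 with T30, while T18V, T18VN and T18VNN gave 2, 0 and 8 reads. The T12 library stood alone among the HEK293T libraries, and A549 lay between it and the other 5. A549 was 0.638 times HEK293T T12 (95% counting interval 0.305 to 1.24). On the log2(CPM + 1) scale the ratio was -0.59 against T12 and 1.48 to 3.17 against the other 5, so its direction rests on the T12 library. ALDH1A3 overlaps ALDH1A3-AS1 on the opposite strand, which had 14 A549 reads and none in HEK293T T12, and whether counting used strand is not given in the sources used here. The shorter of the 2 ALDH1A3 entries had 5 of the 12 A549 reads.

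**Figure D1:**
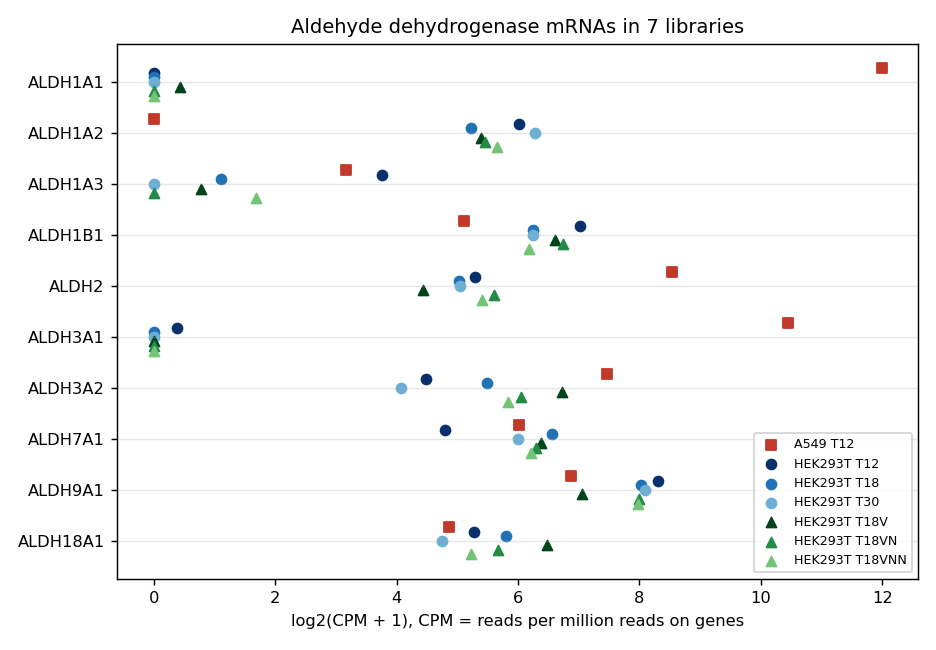
Level of each of the 10 aldehyde dehydrogenase genes as log2(CPM + 1) in 7 libraries: A549 T12 (square), 3 HEK293T libraries with unanchored primers (circles) and 3 with anchored primers (triangles), 1 library per point. ALDH1A1 and ALDH3A1 are high in A549 and near 0 in all 6 HEK293T libraries, while ALDH1A2 is at 0 in A549 only.

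ALDH3A1 (chromosome 17, 19641297 to 19648772, minus strand), which oxidises aromatic and medium-chain aldehydes and is abundant in the cornea, followed ALDH1A1. It had 2096 reads in A549 (1399 CPM, rank 72), 1 read in HEK293T T12 and 0 in the other 5 HEK293T libraries. A549 was 4568 times HEK293T T12, with a 95% counting interval of 819 to 180520 that reflects the single read. This ratio to 1 read is not on the scale of the bound given for ALDH1A1. Its neighbour ALDH3A2 (chromosome 17, 19552064 to 19580904, plus strand), the fatty aldehyde dehydrogenase, was expressed in both lines. It had 176 CPM in A549 against 21.4, 44.0 and 15.8 CPM in HEK293T with T12, T18 and T30, and 105, 65.2 and 55.9 CPM with T18V, T18VN and T18VNN. In CPM, A549 was above every HEK293T library, but the margin moved with the primer. It was 8.19-fold against T12 (95% counting interval 6.27 to 10.8), and under 2-fold against T18V (log2 ratio 0.74). Ratios scaled to the library total were computed against T12 alone. The deposited FPKM of ALDH3A2, which is scaled to the library total, was 6.18 in A549 and 10.3 in HEK293T T18V. The order against T18V thus holds for CPM and reverses by FPKM.

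Of the mitochondrial pair, ALDH2 was higher and ALDH1B1 lower in A549. ALDH2 (chromosome 12, 112204691 to 112247789, plus strand) had 370 CPM in A549 and 38.3, 31.7, 32.0, 20.6, 47.8 and 41.4 CPM in HEK293T with T12, T18, T30, T18V, T18VN and T18VNN. The A549 value was 9.66 times that of HEK293T T12 (95% counting interval 7.94 to 11.8) and lay above all 6. The span of ALDH2 also holds the small RNA gene MIR6761. ALDH1B1 (chromosome 9, 38392661 to 38398662, plus strand) had 33.4 CPM in A549 and 129, 74.6, 75.4, 97.1, 106 and 71.2 CPM in the same HEK293T order. It was 3.87-fold lower in A549 than in HEK293T T12 (95% counting interval 2.88 to 5.30), below all 6 libraries, and at least 2-fold lower against each of them.

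Among the 3 genes of amino acid and carnitine metabolism, ALDH9A1 was lower in A549 and the other two had A549 values inside the HEK293T range. ALDH9A1 (chromosome 1, 165631449 to 165667900, minus strand), an enzyme of carnitine synthesis, had 116 CPM in A549 and 314, 259, 271, 132, 253 and 250 CPM in HEK293T with T12, T18, T30, T18V, T18VN and T18VNN. It was 2.70-fold lower in A549 than in HEK293T T12 (95% counting interval 2.30 to 3.19), while the log2 ratio against T18V was only -0.18. ALDH7A1 (chromosome 5, 125877533 to 125931082, minus strand), which acts in lysine breakdown, had 63.4 CPM in A549 and 26.95, 93.8, 62.7, 82.5, 77.5 and 73.4 CPM in the same HEK293T order. It was 2.35-fold higher in A549 than in T12 (95% counting interval 1.74 to 3.18), but T12 had the lowest of the HEK293T values, and the log2 ratios against the other 5 ran from -0.56 to 0.02. ALDH18A1 (chromosome 10, 97365686 to 97416567, minus strand), which starts proline synthesis from glutamate, had 28.0 CPM in A549 and 37.7, 54.998, 25.7, 87.9, 49.8 and 36.4 CPM in HEK293T. A549 was 0.744 times HEK293T T12, with a 95% counting interval (0.511 to 1.06) that includes equality.

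With T12 in both lines, 5 of the 10 genes were at least 2-fold higher in A549 and 3 at least 2-fold lower on the log2(CPM + 1) scale, with ALDH1A3 and ALDH18A1 in between. Of the 10143 genes that had 20 reads or more in whichever T12 library was higher, 60.2% reached 2-fold, 31.0% towards A549 and 29.2% towards HEK293T. Against HEK293T T18V in place of T12, 3 of the 10 reached 2-fold towards A549, as ALDH3A2 and ALDH7A1 did not. Of all genes tested against T18V, 3097 of 10025 did. The median log2 ratio was 0.40 over the 10 genes and 0.02 over all genes tested. The A549 value fell outside the range of the 6 HEK293T libraries for 7 of the 10, against 62.5% of all genes tested. The genes were chosen with this contrast known, and nothing is read from these counts. There was no replicate check.

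**Figure D2:**
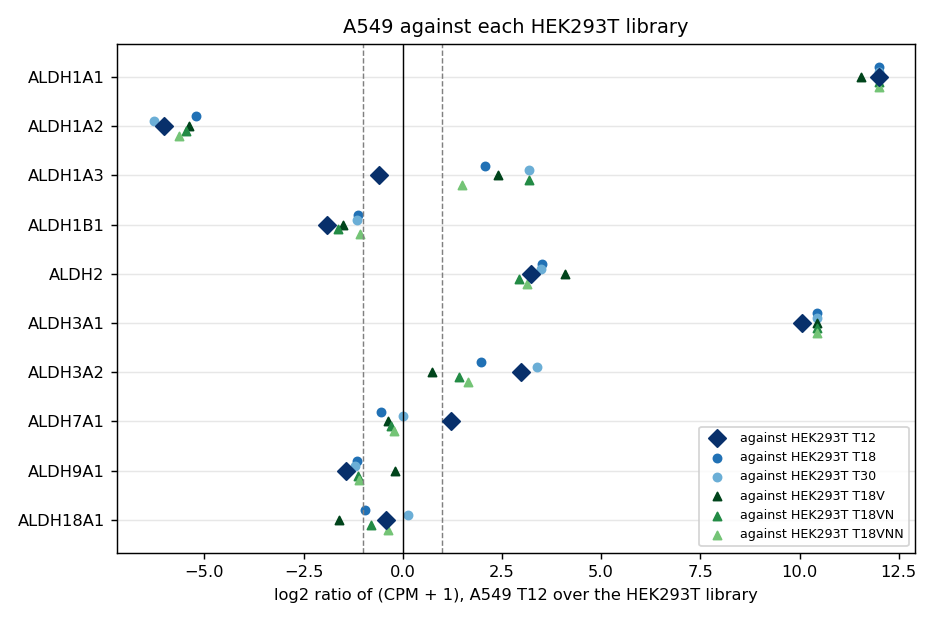
Log2 ratio of (CPM + 1) in A549 T12 over each HEK293T library for the 10 genes, with the T12 library as a diamond, other unanchored primers as circles, anchored primers as triangles and dashed lines at 2-fold. The points of ALDH1A1, ALDH3A1, ALDH2, ALDH1A2 and ALDH1B1 stay beyond 2-fold for all 6 libraries, while those of ALDH7A1 lie between -0.56 and 1.20.

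The family's reads were concentrated on different genes in the 2 lines. The 10 genes together had 6275 CPM in A549 and 559 to 644 CPM in the 6 HEK293T libraries, a narrow band in HEK293T. In A549, ALDH1A1 held 65.0% of these reads (95% Wilson interval 64.1 to 66.0) and ALDH3A1 22.3% (21.5 to 23.1), and the pair 87.3%. Per transcript length, from the deposited FPKM, the pair held 88.9%. In HEK293T T12, ALDH9A1 held 48.7% (95% Wilson interval 46.6 to 50.9) and ALDH1B1 20.1% (18.4 to 21.8). ALDH9A1 remained the gene with most of these reads in all 6 HEK293T libraries, with 43.5% in T18, 48.4% in T30, 23.3% in T18V, 39.4% in T18VN and 43.1% in T18VNN. In T18V its share was lowest, and ALDH3A2 (18.5%), ALDH1B1 (17.1%), ALDH18A1 (15.5%) and ALDH7A1 (14.6%) came close behind it.

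**Figure D3:**
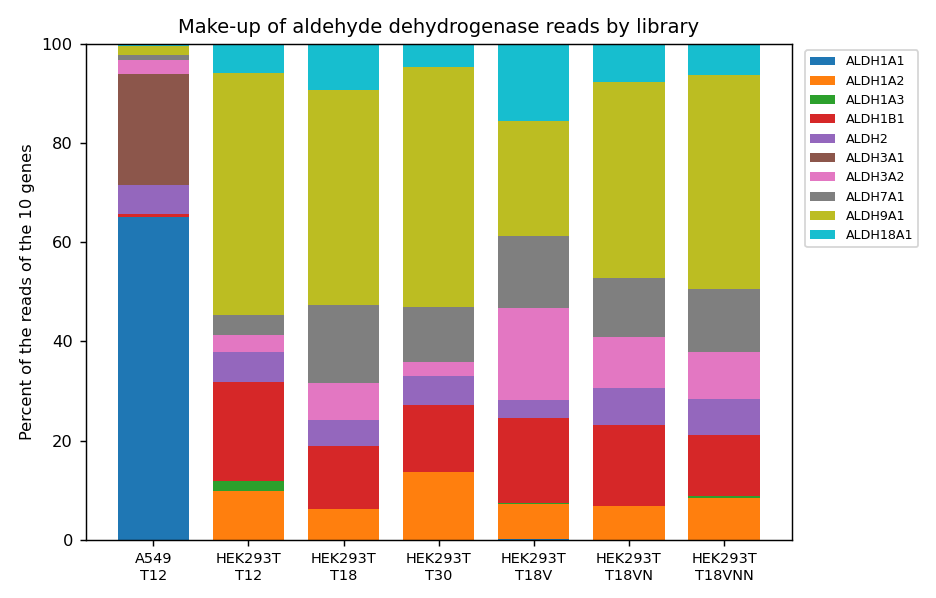
Share of each gene in the summed reads of the 10 aldehyde dehydrogenase genes (percent, stacked to 100) for A549 T12 and the 6 HEK293T libraries. ALDH1A1 and ALDH3A1 fill 87.3% of the A549 bar, and ALDH9A1 is the largest part of every HEK293T bar.

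Levels were ordered between genes by deposited FPKM, which divides reads by transcript length. Whether reads grew with transcript length in these libraries was not tested, so the order depends on that division. By CPM, ALDH3A2 (176) lay above ALDH9A1 (116) in A549, the reverse of their FPKM order. For ALDH2 the division used 2060 nt, against 9569 nt in GENCODE. FPKM is scaled to the library total, of which 11.7% to 37.5% lay on genes, so it was used within a library, except for ALDH3A2 against T18V. In A549 the order was ALDH1A1 (232 FPKM), ALDH3A1 (97.6), ALDH2 (24.2), ALDH9A1 (6.25), ALDH3A2 (6.18), ALDH7A1 (1.73), ALDH1B1 (1.46), ALDH18A1 (1.04) and ALDH1A3 (0.299). ALDH9A1 ranked 1 and ALDH1B1 ranked 2 of these genes in all 6 HEK293T libraries. Ranks 3 to 7 went to ALDH2, ALDH7A1, ALDH3A2, ALDH1A2 and ALDH18A1 in an order that changed with the primer. ALDH2 was at rank 3 with T12 and at rank 7 with T18V, while ALDH7A1 was at rank 7 with T12 and at rank 3 with T18.

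The next comparison asked how the choice of primer changed these levels within HEK293T. Of the 10 genes, 7 passed the low-count filter, and ALDH1A1, ALDH1A3 and ALDH3A1 did not. With edgeR's quasi-likelihood test over all 10885 genes tested, 0 of the 7 had a Benjamini-Hochberg adjusted p under 0.05 between the 3 anchored and the 3 unanchored primers, where 1.35% of all genes tested did. At an unadjusted p under 0.05 the count was 1 by edgeR, where 15.5% of all genes tested passed, and 1 by DESeq2, which also called 0 after adjustment. The share of all genes at an unadjusted p under 0.05 by DESeq2 was not counted, so nothing is read from its count.

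ALDH3A2 had the largest difference. Its values were 21.4, 44.0 and 15.8 CPM with T12, T18 and T30 and 105, 65.2 and 55.9 CPM with T18V, T18VN and T18VNN. All 3 anchored libraries lay above all 3 unanchored ones, as they did for 16.8% of all genes tested. The means were 27.1 ± 14.9 CPM without and 75.3 ± 26.1 CPM with an anchor (SD, n = 3 primers each). The log2 fold change was 1.29 (SE 0.44), with an unadjusted p of 0.0137 and an adjusted p of 0.180 by edgeR, and alternatives gave adjusted p values of 0.0896 to 0.473. ALDH9A1 went the other way: all 3 unanchored libraries, at 259 to 314 CPM, lay above the anchored ones, at 132 to 253 CPM, an order that 6.8% of all genes tested had. On the log2 scale the difference was -0.58 (SE 0.32), and edgeR's adjusted p was 0.416. The margin between T18 (259 CPM) and T18VN (253 CPM) was small. Reads on genes overlapped between the classes. The share of the library total on genes did not, at 27.7% to 37.5% with and 11.7% to 20.3% without an anchor, so the class of primer and this share cannot be told apart.

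The other 5 genes had overlapping groups. ALDH1A2 had 58.9 ± 20.6 CPM without and 44.4 ± 4.31 CPM with an anchor (SD, n = 3 each), which is -0.58 on the log2 scale (SE 0.37, edgeR adjusted p 0.499). ALDH18A1 had 39.5 ± 14.7 and 58.0 ± 26.7 CPM (log2 difference 0.38, SE 0.43). ALDH7A1 had 61.2 ± 33.5 and 77.8 ± 4.58 CPM (log2 difference 0.16, SE 0.43), with its lowest value in T12. ALDH1B1, at 93.1 ± 31.3 and 91.4 ± 18.1 CPM, and ALDH2, at 34.0 ± 3.70 and 36.6 ± 14.2 CPM, differed by -0.19 (SE 0.34) and -0.06 (SE 0.40) on the log2 scale. For ALDH2 the fit, which scales by TMM, and the CPM means differ in sign, and the fit with reads on genes alone gave 0.11. The edgeR adjusted p values of these 4 genes ran from 0.736 for ALDH18A1 to 0.963 for ALDH2, which does not show that their levels were alike.

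**Figure D4:**
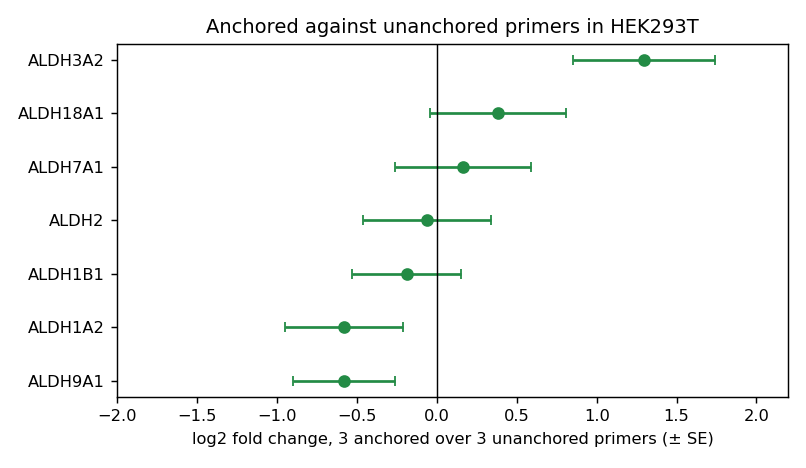
Log2 fold change of the 3 anchored over the 3 unanchored HEK293T primers for the 7 genes tested, with bars of 1 SE from edgeR's quasi-likelihood fit. ALDH3A2 lies furthest from 0 at 1.29, and no gene passed the adjusted threshold.

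Primers one step apart differed with 1 library each, so these values have no test. From T12 to T18, 3 of the 8 genes with at least 20 reads moved at least 2-fold, where 29.2% of all genes did. ALDH7A1 was 3.48-fold and ALDH3A2 2.05-fold higher with T18, and ALDH1A3 was lower (12.6 to 1.15 CPM). From T12 to T30, 2 of 8 did (36.9% of all genes): ALDH7A1 was 2.33-fold higher, and ALDH1A3 was at 0 reads. From T18 to T30, 3 of 7 did (27.7% of all genes): ALDH1A2 was 2.11-fold higher, and ALDH3A2 and ALDH18A1 were at 0.359 and 0.468 times their T18 level. Adding the first anchor base, T18V against T18, moved ALDH3A2 alone at least 2-fold (2.38-fold higher, 1 of 7 genes, against 32.5% of all genes), with ALDH9A1 at 0.510 times just inside the threshold. From T18V to T18VN only ALDH2 did (2.31-fold higher, 1 of 7, against 28.6% of all genes), and from T18VN to T18VNN 0 of 7 did (23.6% of all genes). The coefficient of variation over the 6 primers was 24.7% for ALDH9A1, 24.8% for ALDH1B1, 26.6% for ALDH2, 30.0% for ALDH1A2, 33.4% for ALDH7A1, 44.7% for ALDH18A1 and 63.6% for ALDH3A2. Over 9474 genes with a mean of at least 20 reads per HEK293T library its median was 42.6% (quartiles 30.5% and 57.6%). ALDH9A1, ALDH1B1 and ALDH2 were thus below the lower quartile, ALDH1A2 just below it, and ALDH3A2 above the upper one. The 9474 genes were not matched to these for read count, so a steadier level is not shown.

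Of the other 9 aldehyde dehydrogenase genes, 5 reached 20 reads in a T12 library, and ALDH1L1 and ALDH3B2 had none in all 7 libraries. ALDH3B1, which acts on lipid aldehydes at membranes, had 465 A549 reads (310 CPM), 8 in HEK293T T12, 1 in T18 and 0 in the other 4 HEK293T libraries. It was 127 times as high in A549 as in HEK293T T12 (95% counting interval 63.8 to 295). ALDH6A1, of valine and pyrimidine breakdown, had 48.7 CPM in A549 and 4.90 to 36.4 CPM over HEK293T, and was 9.94-fold higher than in T12. ALDH5A1, of GABA breakdown, was lower in A549 (4.01 CPM) than in all 6 HEK293T libraries (11.7 to 28.5 CPM). ALDH16A1 had 46.1 CPM in A549 and 48.0 to 63.4 in HEK293T, and ALDH4A1, of proline breakdown, had 16.7 CPM in A549 and 1.07 to 15.9 in HEK293T. In the anchored contrast 5 of the 9 were tested and 0 passed by edgeR, with or without adjustment, where 1.35% and 15.5% of all genes tested did.

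Genes that work beside these enzymes were counted at the same 2-fold threshold, which 31.0% of all genes passed towards A549 and 29.2% towards HEK293T, with a median log2 ratio of 0.02. The counts of these short lists are descriptions to be read against those shares. In the retinoid pathway, 4 of the 10 genes that reached 20 reads were higher and 2 lower in A549 (median log2 ratio 0.64). STRA6, the receptor that takes up retinol, had 137 A549 reads and none in HEK293T T12, at least 99.5-fold apart when the floor stands in for 0, and DHRS3, which returns retinaldehyde to retinol, had 48.1 and 2.14 CPM. CRABP2, which carries retinoic acid, had 8.68 and 36.1 CPM. T12 had the highest CRABP2 value of the 6 HEK293T libraries, and A549 lay inside their range of 5.69 to 36.1 CPM.

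In proline synthesis, the pathway of ALDH18A1, 0 of 5 genes were higher and 2 lower, among them PYCR3, with 7.34 CPM in A549 against 20.5 in HEK293T T12. In lysine breakdown, the pathway of ALDH7A1, 0 of 4 were higher and 1 lower. This was AASS, the first enzyme of the main route, with 66.8 CPM in A549 against 321 to 603 over HEK293T. Of 4 genes of carnitine synthesis and uptake, the carnitine transporter SLC22A5 was higher (22.0 and 3.98 CPM) and SHMT2, a mitochondrial serine hydroxymethyltransferase, lower (21.4 and 91.3 CPM) in A549. SLC22A5 had 3.98 to 15.9 CPM over HEK293T, lowest in T12. Of 7 genes of fatty aldehyde and sphingolipid metabolism, 3 were higher and 1 lower. Among them PHYH had 27.4 and 1.84 CPM, SGPL1, whose product ALDH3A2 oxidises, had 35.4 and 12.9 CPM (12.9 to 32.6 CPM over HEK293T, lowest in T12), and SPHK1 had 0 and 21 reads, at least 3.21-fold lower in A549.

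The aryl hydrocarbon receptor induces ALDH3A1 in many tissues. Whether the receptor had a part in the ALDH3A1 level of A549 was not tested. Of 6 genes of its pathway that reached 20 reads, 5 were higher in A549 and 0 lower (median log2 ratio 4.39), where 31.0% of all genes were higher. Below 20 reads on the same list were CYP1A1 (9 A549 reads, 1 in HEK293T T12) and CYP1A2 (0 in each). CYP1A1 and CYP1A2 are named after their values were seen. NQO1, which is also 1 of the A549 markers, had 1313 A549 reads and none in HEK293T T12, at least 954-fold apart. CYP1B1 had 457 and 5.21 CPM, TIPARP 47.4 and 21.1 CPM, and the receptor gene AHR itself 34.7 and 1.84 CPM. Of 8 alcohol dehydrogenase genes, which make the aldehydes of alcohols, ADH6 had 19 A549 reads and none in HEK293T T12. ADH5 was the only one to reach 20 reads (65.4 CPM in A549, 42.9 in HEK293T T12) and both are named after their values were seen. In the anchored contrast no gene of these pathway lists had an adjusted p under 0.05 by edgeR as fitted here, where 1.35% of all genes tested did. SHMT1, a cytosolic serine hydroxymethyltransferase, came closest (42.5 CPM without and 160 CPM with an anchor, adjusted p 0.0631), and alternatives gave it 0.00307 (DESeq2) to 0.205. For the retinoic acid receptor gene RARA the adjusted p was 0.485, and alternatives gave 0.0261 (without T18) to 0.733. Both are named after their values were seen.

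**Figure D5:**
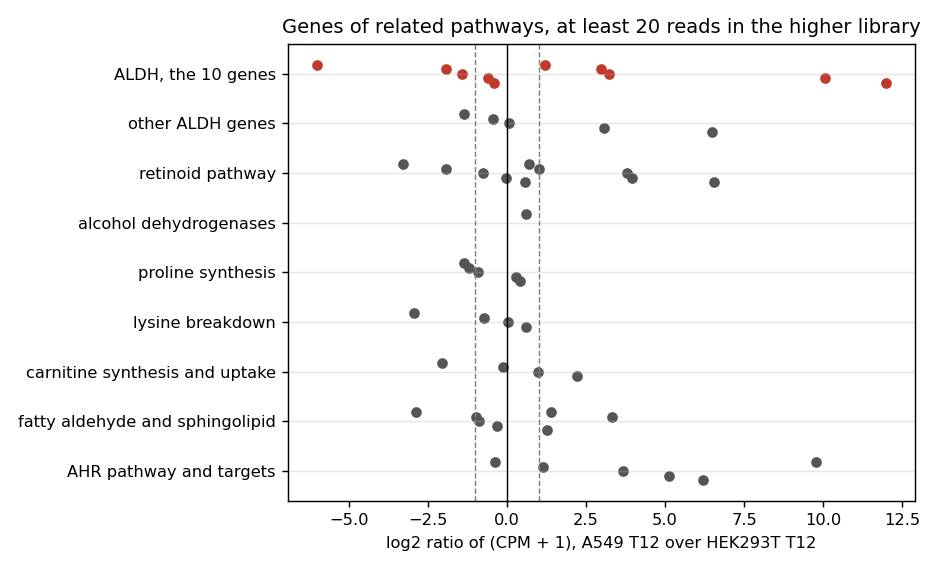
Log2 ratio of (CPM + 1) in A549 T12 over HEK293T T12 for the 10 aldehyde dehydrogenase genes and for genes of related pathways that reached 20 reads in a T12 library, 1 point per gene, with dashed lines at 2-fold. The AHR pathway has 5 of 6 genes beyond 2-fold on the A549 side, while proline synthesis and lysine breakdown have none there.

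The genes whose log2(CPM + 1) lay closest to that of ALDH1A1 over the 7 libraries were TGFBI (Euclidean distance 0.59), PAPPA (0.60) and PAPPA-AS1 (0.85), out of 12322 genes compared. TGFBI had 5371 CPM in A549 and no read in HEK293T. PAPPA-AS1 lies within PAPPA, and whether counting used strand is not given, so the reads of these genes may not be separate. For ALDH18A1 the closest were BCL2L13 (0.76), UBE2F (0.79) and NIPAL3 (0.81). The distance for ALDH1A1 is set almost wholly by the single A549 library.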

How the data were processed

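The authors deposited whole-number counts for each RefSeq transcript in 7 libraries, in tables with the layout of RSeQC's FPKM_count output. Per the submitters' processing notes, cutadapt 2.10, Trimmomatic 0.39, HISAT2 2.2.1, SAMtools and hg19 were used; the treatment of strand and of multiply mapped reads is not given in the sources used here. The deposited FPM (a signal scaled to the library total) and FPKM follow from these counts. FPKM served to order genes, for their shares, and to set ALDH3A2 in A549 against HEK293T T18V. Of 61177 entries, 60127 (98.3%) matched a RefSeq symbol, giving 26621 genes. Reads can be shared between entries of 1 gene, so the entries are not separate measurements of isoforms.

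CPM was computed from reads on genes. A549 and HEK293T T12 were compared on log2(CPM + 1) at 2-fold, where either had 20 reads or more; exact conditional binomial and Wilson intervals (95%) cover only counting error, as no molecular identifiers separate PCR copies. Anchored and unanchored primers were compared with edgeR 4.0.16 (filterByExpr, TMM, quasi-likelihood test, no covariates, Benjamini-Hochberg adjustment at 0.05) after a check on simulated data. The simulated counts had less spread than these libraries and larger changes than these genes. That check thus does not give the power for them. SE is the log2 fold change divided by the square root of F. DESeq2 1.42.0 was an alternative. P-values measure the spread between single libraries of different primers. Genes named were the 10 genes, other ALDH genes with at least 20 reads, and the 2 highest and 2 lowest ratios of each pathway list beyond 2-fold, except 2 genes that are not reported here. Members and lists were chosen with earlier results of these data known. Gene body coverage and poly(T) lengths were not used here. Sequences are from RefSeq (GRCh38.p14) and GENCODE 29; 8 of the 10 genes had a promoter entry.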

Additional observations from a re-analysis of the deposited data

Results flagged for a closer look

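Over the 6 HEK293T libraries, 4 of the 10 genes had 1 library far from the rest. The share of all genes with such a library was not counted, so nothing is read from the count of 4. ALDH9A1 had 132 CPM in T18V and 250 to 314 CPM in the other 5. ALDH1A3 had 12.6 CPM (41 reads) in T12 and 0 to 2.22 CPM in the other 5. ALDH1A1 had 0.356 CPM in T18V and ALDH3A1 had 0.306 CPM in T12, each of them 1 read where the other 5 libraries had 0, which is under the detection floor.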

How the results depend on the processing

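No paired analysis was possible because the 2 T12 libraries with gene counts carry different replicate numbers and the other primers carry none. TMM moved the median log2 ratio of all genes from 0.02 to -0.24 and scaling to the library total moved it to -0.26. Over 13 alternatives, the 5 genes at least 2-fold higher in A549 became 3 against T18V, 4 against T18, T30, T18VN and T18VNN, and 4 with TMM or library-total scaling, where ALDH7A1 was at 0.94 and 0.75. Over all genes tested, 3146 of 10143 were higher in the main setting. This became 3097 of 10025 against T18V, 2711 with TMM and 2249 with library-total scaling. It was 3232 of 10944, 3344 of 9524, 2779 of 11039 and 2912 of 10578 against T18, T30, T18VN and T18VNN. The 3 lower genes became 4 with the mean over transcript entries (2876 of 9920 over all genes tested), where ALDH1A3 was at -1.10. Against T18V the count of lower genes stayed 3 (3077 of 10025 over all genes tested), but with ALDH18A1 (-1.61) in place of ALDH9A1 (-0.18). In addition the ALDH7A1 ratio turned to -0.56 against T18, -0.38 against T18V, -0.28 against T18VN and -0.21 against T18VNN; the cause was not tested. The count of 0 aldehyde dehydrogenase genes called in the anchored contrast stayed 0 in all alternatives run. The 147 genes called overall became 603 with DESeq2 and 556 without the low-count filter, and 46 to 111 with each library left out: 46 without T18VNN, 54 without T30, 63 without T18V, 85 without T18, 107 without T12 and 111 without T18VN. Among uncalled log2 fold changes, ALDH2 turned to 0.11 with reads on genes alone and to 0.18 without T18V (leave-one-out -0.31 to 0.18), ALDH1B1 to 0.0852 without T12 (-0.33 to 0.0852), ALDH7A1 to -0.21 without T12 (-0.21 to 0.61) and ALDH18A1 to -0.0939 without T18V (-0.0939 to 0.70). ALDH1A1 and ALDH3A1 were under the detection floor in all 6 HEK293T libraries, and ALDH1A3 in T30, T18V and T18VN.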
